A study of Rattus norvegicus with 24 samples.

Results

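Gdf15 and Stc2, the genes of growth differentiation factor 15 and stanniocalcin 2, are 2 of the 32883 genes counted in cultures of primary rat oligodendrocyte precursor cells (OPCs) and differentiating oligodendrocytes (OLs). They were taken by their identifiers, ENSRNOG00000019661 and ENSRNOG00000020729, and were chosen by measured values, since both stood near the top of the differences between DTG-treated and DMSO-treated OLs. Levels in DTG-treated OLs are therefore given as a description, without a test. RNA was sequenced in 6 conditions with 4 libraries each, from cortical cultures of neonatal Sprague Dawley rats purified by shaking, in which replicates were independent litters. OPCs were collected after 24 hours of proliferation, untreated, with the vehicle DMSO at 0.04%, or with 8 µM dolutegravir (DTG), an integrase inhibitor used against HIV. OLs received the same 3 treatments for 24 hours of proliferation and a further 72 hours in differentiation medium. Libraries with the same number carry the same date in their names, and replicates 2 and 3 share 1 date. Each library held between 13241279 and 18499994 counts on genes.

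GDF15 is a distant member of the TGF-β family, released by cells under mitochondrial, endoplasmic reticulum or nutrient stress, and it acts on the brainstem receptor GFRAL to reduce appetite. STC2 is a secreted glycoprotein that inhibits the protease PAPP-A, which otherwise frees insulin-like growth factors from their binding proteins. Both genes are known to be induced by the transcription factor ATF4 in the integrated stress response (ISR), in which phosphorylation of eIF2α lowers general translation and favours ATF4, and Gdf15 is also a known target of p53.

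In 22 of the 24 count files, labelled as Rnor_6.0, Gdf15 lies on chromosome 16 from 20555395 to 20557978 on the plus strand, with 2 exons that sum to 912 bases. Stc2 lies on chromosome 10 from 16542882 to 16553295, also on the plus strand, with 4 exons that sum to 1557 bases. No other gene overlaps either one there. The files of replicate 3 of the untreated OPCs and untreated OLs, also labelled Rnor_6.0, use other gene models at other coordinates. In them Gdf15 starts at 18805239 and Stc2 at 16250853 on the same chromosomes, so the build of these files is uncertain. Gdf15 has 1147 and Stc2 has 3261 exonic bases there, and 1 other gene overlaps Gdf15. Comparisons with untreated cells used the 21651 identifiers that both kinds of file share.

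The promoter windows of both genes are shown because the 2 genes were higher together in DTG-treated OLs, from the RefSeq table of build GRCr8, which covers 250 bases before and 50 bases after each start. Both symbols were found in it. For Gdf15 the window of the downstream of 2 listed starts is chr16:18839015-18839314, and for Stc2 the window is chr10:16755258-16755557, both on the plus strand. Capitals mark 3 motifs on either strand, the TATA box with the letters TATAAA, the GC box with the letters GGGCGG, and the core of the antioxidant response element with the letters TGACNNNGC.
Gdf15: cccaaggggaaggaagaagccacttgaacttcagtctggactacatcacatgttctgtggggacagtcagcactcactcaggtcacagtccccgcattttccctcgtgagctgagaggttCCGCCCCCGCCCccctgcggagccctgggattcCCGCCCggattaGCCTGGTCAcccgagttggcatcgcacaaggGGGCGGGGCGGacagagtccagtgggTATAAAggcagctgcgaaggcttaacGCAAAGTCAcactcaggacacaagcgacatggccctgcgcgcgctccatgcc
Stc2: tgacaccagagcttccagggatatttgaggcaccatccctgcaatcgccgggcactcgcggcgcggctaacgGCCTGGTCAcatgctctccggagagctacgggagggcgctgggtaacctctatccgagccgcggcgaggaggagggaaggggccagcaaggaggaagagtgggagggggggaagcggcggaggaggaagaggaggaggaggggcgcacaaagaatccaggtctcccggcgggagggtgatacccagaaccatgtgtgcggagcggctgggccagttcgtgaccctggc
The Gdf15 window holds 1 TATA box, 5 GC boxes, of which a pair shares a base, and 2 matches to the antioxidant core. These motifs occur in 14.2%, 33.1% and 12.1% of 33469 promoters of the same length. The Stc2 window holds 1 match to the antioxidant core and neither a TATA box nor a GC box. TGATGNAA, a form of the C/EBP-ATF response element, was in neither window and in 3.98% of all promoters, and TGACGTCA, the cAMP response element, was in neither and in 1.83% of all. The core letters of a p53 site and the ERSE, a motif of ER stress genes, had no match either, against 7.98% and 0.0657% of all promoters. GC content was 61.3% in the Gdf15 window and 66.0% in the Stc2 window, against a median of 51.7%. The window of the upstream Gdf15 start held none of the motifs named here.

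Gdf15 was low in every condition except DTG-treated OLs. Its raw counts in replicates 1 to 4 were 31, 59, 25 and 39 in untreated OPCs, 12, 74, 79 and 56 in DMSO-treated OPCs, and 15, 79, 83 and 87 in DTG-treated OPCs. In OLs they were 13, 25, 9 and 20 without treatment, 18, 28, 40 and 20 with DMSO, and 218, 166, 362 and 214 with DTG. All 4 DTG-treated OL libraries lay above every other library, and replicate 1 was the lowest of both DMSO-treated and DTG-treated OPCs. As CPM, the gene's share of a library's counts after scaling over all 24 libraries (per 1000000), Gdf15 averaged 18.3 ± 6.61 in DTG-treated OLs and 2.05 ± 0.914 in DMSO-treated OLs (SD, n = 4 each).

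Stc2 was also low outside DTG-treated OLs. Its raw counts in replicates 1 to 4 were 36, 11, 17 and 18 in untreated OPCs, 27, 13, 19 and 19 in DMSO-treated OPCs, and 94, 20, 18 and 33 in DTG-treated OPCs. In OLs they were 31, 19, 89 and 103 without treatment, 52, 20, 44 and 37 with DMSO, and 314, 92, 253 and 216 with DTG. In CPM, the 4 DTG-treated OL libraries were again above all other libraries, and replicate 1 of the DTG-treated OPCs stood above the other 3 of its group. Stc2 averaged 16.3 ± 6.83 CPM in DTG-treated OLs and 2.91 ± 1.03 CPM in DMSO-treated OLs (SD, n = 4 each).

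**Figure D1:**
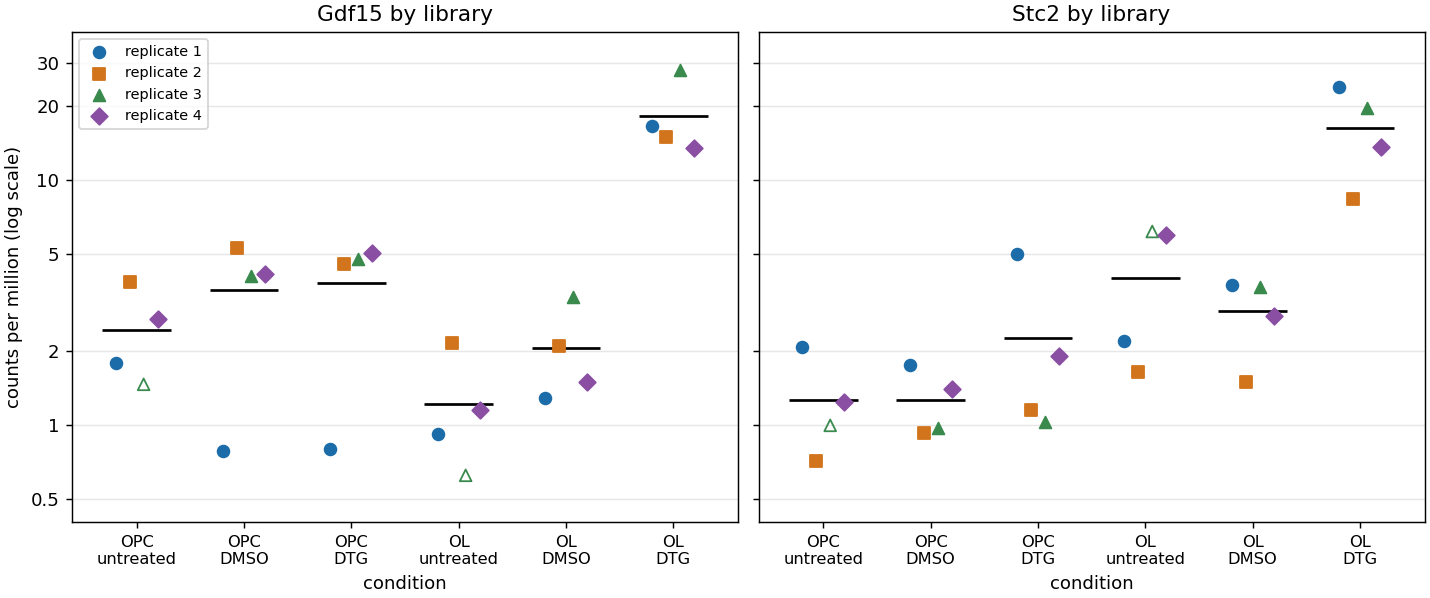
CPM (log axis) of Gdf15 and Stc2 in each library by condition. Black lines are means of 4 libraries, and open triangles are the 2 libraries with other gene models. The DTG-treated OLs lie between 13.4 and 28.0 CPM for Gdf15 and between 8.31 and 23.9 CPM for Stc2, above all other libraries.

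The order of the conditions differed between the genes. Mean Gdf15 CPM ranked from untreated OLs at 1.21 through DMSO-treated OLs at 2.05, untreated OPCs at 2.45, DMSO-treated OPCs at 3.55 and DTG-treated OPCs at 3.78 to DTG-treated OLs at 18.3. Mean Stc2 CPM ranked from untreated and DMSO-treated OPCs, both at 1.26, through DTG-treated OPCs at 2.27, DMSO-treated OLs at 2.91 and untreated OLs at 3.98 to DTG-treated OLs at 16.3. In both orders, neighbouring conditions overlapped, except that DTG-treated OLs did not overlap with the condition next to them. Without DTG, Gdf15 was lower and Stc2 higher in OLs than in OPCs on average. The Stc2 order depended on scaling. Scaled to counts of synthetic ERCC RNA, mean Stc2 was 1.77 in untreated OPCs, 1.79 in DMSO-treated OLs and 1.85 in DMSO-treated OPCs. Untreated OLs were then at 3.40, DTG-treated OPCs at 3.98 and DTG-treated OLs at 13.1. On that scale the Gdf15 order was unchanged, but DTG-treated OLs overlapped with DTG-treated OPCs for both genes. They also overlapped with DMSO-treated OPCs for Gdf15 and with untreated OLs for Stc2. There Stc2 was at 4.32 in replicate 2 of the DTG-treated OLs and at 7.39 in replicate 4 of the untreated OLs.

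The comparison of DTG-treated with DMSO-treated OLs asks what exposure to the drug across proliferation and differentiation changes in OLs. It is also the comparison that chose both genes. Gdf15 was higher by 3.16 ± 0.33 and Stc2 by 2.48 ± 0.35 on the log2 scale (SE, n = 4 each), which placed them at ranks 2 and 7 of 12710 genes. Within same-numbered libraries, Gdf15 was 7.15-fold to 12.9-fold higher, with the largest ratio in replicate 1. Stc2 was 4.89-fold to 6.46-fold higher, again with the largest ratio in replicate 1. The groups did not overlap for either gene, as for 8.28% of all genes tested. Against untreated OLs, DTG-treated OLs were higher by 3.94 ± 0.40 for Gdf15 and by 2.03 ± 0.48 for Stc2 on the log2 scale (SE). The groups again did not overlap, as for 7.60% of genes tested there, although with ERCC scaling those of Stc2 did.

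**Figure D2:**
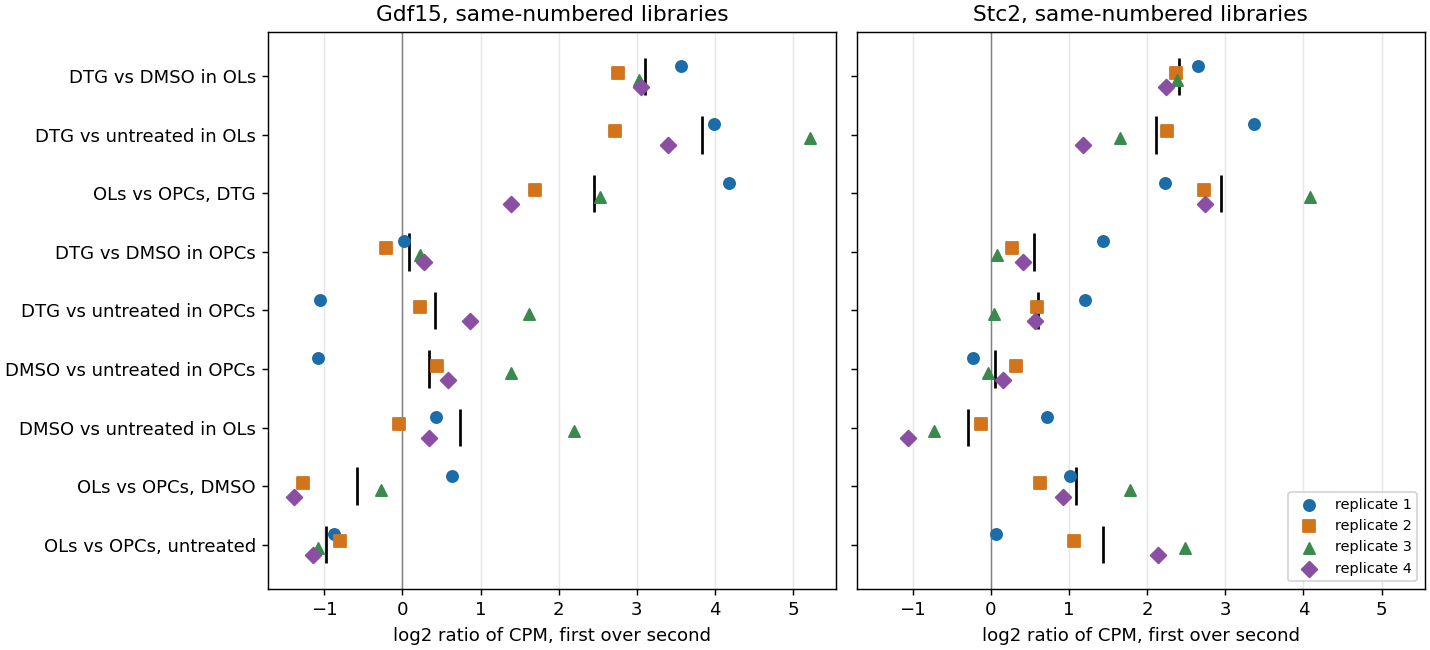
Log2 ratios of CPM between same-numbered libraries (horizontal axis) for Gdf15 and Stc2 in the 9 comparisons, with means as black lines. In OLs all 4 ratios of DTG to DMSO exceed 2 for both genes, whereas in OPCs those of Gdf15 lie between -0.21 and 0.28 and those of Stc2 between 0.08 and 1.43.

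Other measures moved with these levels in OLs. Mitochondrial genes took 4.62% ± 0.787 of gene counts in DTG-treated OLs against 2.33% ± 0.210 in DMSO-treated OLs (SD, n = 4 each), with no overlap. The share was also 4.30% ± 1.19 in DTG-treated OPCs and 3.26% ± 1.17 in DMSO-treated OPCs (SD, n = 4 each), which overlapped. In OLs, the 3 oligodendrocyte markers that could be named, of 10 in the list, summed to 2791 ± 1014 CPM with DTG and 7325 ± 2657 CPM with DMSO, mostly from Mbp, the gene of myelin basic protein. Mog, a late myelin gene, fell by 1.01 on the log2 scale (edgeR's quasi-likelihood test, adjusted p = 0.0116), and Mbp was at -1.40 (adjusted p = 0.0772). Against untreated OLs neither was called, with Mog at -0.74 (adjusted p = 0.148) and Mbp at -1.22 (adjusted p = 0.262). None of the 3 markers was at 0 in any library. In DTG-treated against DMSO-treated OLs, 45 genes were called higher and 26 lower, whereas with ERCC scaling, which put the median gene at 0.44, 16 of the 17 genes called were higher. The named markers of neurons, 3 of 6, summed to 83.8 ± 17.8 CPM with DTG and 78.8 ± 16.04 CPM with DMSO, mostly from Map2. The named OPC markers, 2 of 7, summed to 187.3 ± 80.4 CPM with DTG and 203.2 ± 81.9 CPM with DMSO, mostly from Pdgfra. Sox9, the single named astrocyte marker of 7, averaged 101.7 ± 10.8 CPM with DTG and 79.6 ± 8.33 CPM with DMSO (adjusted p = 0.38, edgeR). The single named markers of microglia (Cd68, 1 of 12) and of vascular cells and fibroblasts (Acta2, 1 of 9) averaged 0.375 and 0.470 CPM in DTG-treated OLs and 0.274 and 0.859 CPM in DMSO-treated OLs. The part of these differences in the Gdf15 and Stc2 levels was not tested, and in bulk RNA a change in cell types and a change in RNA per cell cannot be told apart. Marker names came from the study's lists of genes that differed with DTG in OLs or between stages, so unchanged markers could not be named.

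In OPCs, no difference between DTG and DMSO was detected for either gene. Gdf15 changed by 0.10 ± 0.61 on the log2 scale (SE, n = 4 each, 95% interval -1.26 to 1.45, adjusted p = 0.968), and its same-numbered ratios ran from 0.860 to 1.22. Stc2 was at 0.85 ± 0.52 (95% interval -0.32 to 2.01, adjusted p = 0.906). It was higher in 4 of 4 pairs, by 1.06-fold to 2.83-fold, with the highest ratio in replicate 1, and without that DTG library the log2 fold change was 0.11. These are values of edgeR's quasi-likelihood test, which called 0 of 13270 genes (0%) here, as DESeq2 did, where a call needed a Benjamini-Hochberg adjusted p below 0.05 and more than a 2-fold change, although 66 genes had an unadjusted p under 0.05. Two-sided exact permutation tests of the same libraries, which cannot give a p below 0.0286, gave p = 0.657 for Gdf15 and p = 0.400 for Stc2.

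Against untreated OPCs, DTG-treated OPCs were at 0.64 ± 0.55 for Gdf15 and 0.83 ± 0.58 for Stc2 on the log2 scale (SE, adjusted p = 0.997 for both, edgeR). Stc2 was higher in 4 of 4 pairs, and without replicate 1 of the DTG-treated OPCs its log2 fold change was 0.099. The 4 Gdf15 ratios ran from 0.443 in replicate 1 to 3.25 in replicate 3. Of 12269 genes, 0 were called (0%), also with DESeq2, and 173 had an unadjusted p under 0.05.

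The vehicle itself was compared with no treatment at both stages. In OPCs, DMSO gave 0.54 ± 0.53 for Gdf15 and -0.01 ± 0.42 for Stc2 (log2, SE, adjusted p = 1.00 for both, edgeR), where 0 of 12182 genes were called (0%) with edgeR and with DESeq2, and 70 had an unadjusted p under 0.05. In OLs, DMSO gave 0.73 ± 0.44 for Gdf15 (adjusted p = 0.664) and -0.49 ± 0.47 for Stc2 (adjusted p = 0.764). There too 0 of 11893 genes were called (0%) with both tools, and 871 had an unadjusted p under 0.05. With ERCC scaling Gdf15 was at 0.22 and Stc2 at -0.94 there, neither called. On that scale 49 genes were called, all lower, and the median gene was at -0.42 (log2). DMSO-treated OLs also entered the comparison that chose the genes. The 2 untreated OL libraries with the highest Stc2 were replicates 3 and 4, at 6.15 and 5.93 CPM, and the former was counted with the longer Stc2 model.

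The comparison of OLs with OPCs asks how the genes change with differentiation when no drug is present. The DMSO-treated OLs are also among the libraries that chose both genes, so the p-values with DMSO are not independent of that choice. Untreated libraries were not in the comparison of DTG-treated with DMSO-treated OLs. The genes were chosen with earlier results of these data known, however, so the p-values in untreated cells may not be independent either. With DMSO, Stc2 rose in OLs by 1.22 ± 0.38 on the log2 scale (SE, n = 4 each, adjusted p = 0.0173, edgeR). It was higher in 4 of 4 pairs, by 1.62-fold to 3.76-fold, and 14.0% of 13023 genes were called higher. Gdf15 was at -0.77 ± 0.50 (adjusted p = 0.205), lower in 3 of 4 pairs and higher in replicate 1, where 18.3% of genes were called lower. Without replicate 1 of the DMSO-treated OPCs, Gdf15 passed the thresholds at -1.12 (adjusted p = 0.0301). The call of Stc2 was lost without replicate 2 of the DMSO-treated OPCs (adjusted p = 0.0517), without replicate 1 of the DMSO-treated OLs (adjusted p = 0.0503) and with all 24 libraries in one fit (adjusted p = 0.0564). The exact permutation test gave p = 0.0571 for Stc2 and p = 0.371 for Gdf15.

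In untreated cells the directions were the same. Stc2 rose in OLs by 1.65 ± 0.53 on the log2 scale (SE, adjusted p = 0.0363, edgeR), higher in 4 of 4 pairs by 1.05-fold to 6.18-fold, where 11.4% of 12158 genes were called higher. Gdf15 was at -1.02 ± 0.46 (adjusted p = 0.111), and all 4 pairs lay between 0.425 and 0.563, where 13.2% of genes were called lower. Without the replicate 3 libraries, whose gene models differ, Stc2 was at 1.27 (adjusted p = 0.0948). The call of Stc2 was also lost when 1 library was left out in 5 of 8 fits, namely without replicate 2, 3 or 4 of the untreated OPCs or replicate 3 or 4 of the untreated OLs, with adjusted p-values up to 0.0958. Gdf15 passed the thresholds without replicate 2 of the untreated OLs, at -1.43 (adjusted p = 0.0498). The exact permutation test gave p = 0.0571 for Stc2 and p = 0.0857 for Gdf15. Like the other permutation tests here, it did not use the shared dates. Deviations of same-numbered untreated libraries correlated across genes between 0.270 and 0.676. Over the 12 such tests the adjusted p-values were at least 0.343, which is also what a single test at the smallest possible p of 0.0286 would give, so they could not single out 1 result.

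Scaling to ERCC counts, synthetic RNA added to each sample, moved these values together with those of all genes. Over all genes, the median change from OPCs to OLs went from -0.12 to -1.48 with DMSO and from -0.10 to -0.99 in untreated cells (log2). Of the genes called, 1822 of 4203 were higher in DMSO-treated OLs with TMM scaling and 274 of 6526 with ERCC scaling, and in untreated OLs 1391 of 2996 and 361 of 3602. On that scale Stc2 was at -0.047 with DMSO (adjusted p = 0.961) and at 0.93 in untreated cells (adjusted p = 0.301), which is 1.43 and 1.93 above the median gene. Gdf15 was at -2.33 (adjusted p = 0.0105) and -1.93 (adjusted p = 0.0329), or -0.85 and -0.94 relative to the median. Named markers of other cell types were lower in OLs as well, among them Acta2 at -4.93 and Cd68 at -2.38 on the log2 scale with DMSO. Their names came from the study's lists of genes that differed, so these values are not independent evidence of a change. The part of these markers in the Gdf15 and Stc2 values was not tested.

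Between DTG-treated OLs and DTG-treated OPCs, Gdf15 was higher by 2.28 ± 0.47 and Stc2 by 2.84 ± 0.51 on the log2 scale (SE), without overlap, as for 52.7% of genes. With ERCC scaling these values were 0.93 and 1.70, where the median gene was at -1.35. Gdf15 ratios ran from 2.67 in replicate 4 to 20.9 in replicate 1, where the OPC level was lowest. Stc2 ratios ran from 4.80 in replicate 1, where the OPC level was highest, to 19.0 in replicate 3.

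Per kilobase of exons, the ratio of the 2 transcripts was described without a test, and its ranges in OPCs and OLs overlapped. In the libraries with the same gene models, the median ratio of Gdf15 to Stc2 was 6.07 in DMSO-treated and 5.62 in DTG-treated OPCs, 1.24 in DMSO-treated OLs and 2.07 in DTG-treated OLs. In untreated cells, with 3 such libraries each, it was 3.70 in OPCs and 0.716 in OLs. Gdf15 averaged 20.02 ± 7.25 and Stc2 10.5 ± 4.38 CPM per kilobase in DTG-treated OLs (SD, n = 4). Replicate 1 had the lowest ratio in DMSO-treated and DTG-treated cells of both stages and in untreated OPCs. In OPCs it was 0.759 with DMSO and 0.272 with DTG, whereas the other 3 DTG-treated OPC libraries had ratios between 4.50 and 7.87.

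**Figure D3:**
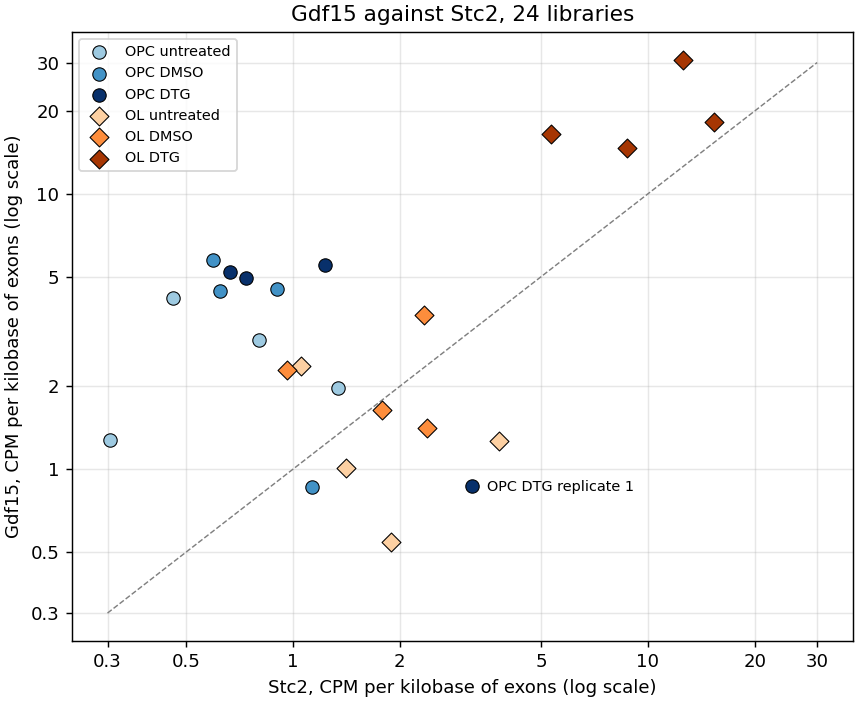
Gdf15 against Stc2 as CPM per kilobase of exons (both axes log) in 24 libraries, with the dashed line at equal levels. DTG-treated OLs lie at the top right, all above the line, and the OPCs lie above it too, at lower levels, apart from replicate 1 of the DTG-treated OPCs, at 0.871 and 3.20 CPM per kilobase, and replicate 1 of the DMSO-treated OPCs, at 0.858 and 1.13.

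Over the 22 libraries with the same gene models, Gdf15 and Stc2 were not among the genes most like each other. Their log2 CPM correlated with Pearson's r = 0.475 and Spearman's rho = 0.066, and with r = -0.536 after the mean of each condition was removed. The libraries share dates, and they include the DTG-treated OLs that chose the genes, so these coefficients are descriptions. Ranked by r among 14046 genes, Stc2 was at place 594 for Gdf15, and Gdf15 was at place 2714 for Stc2.

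The 5 genes closest to Gdf15 by Pearson's r were Sesn2, which encodes a stress-induced inhibitor of mTORC1 (r = 0.902), ENSRNOG00000025130, which has no symbol here (0.851), the cell cycle inhibitor Cdkn1a (0.847), the cytokine Lif (0.815) and the mitochondrial Mt-co3, a subunit of cytochrome c oxidase (0.813). The 5 genes closest to Stc2 were ENSRNOG00000025459, also without a symbol (0.907), Pck2, the mitochondrial phosphoenolpyruvate carboxykinase (0.905), the amino acid transporter Slc7a7 (0.901), the pseudokinase Trib3 (0.886) and the cationic amino acid transporter Slc7a3 (0.869). The 2 sets of 5 had no gene in common. Within conditions, r was between 0.648 and 0.780 for the former set and between 0.468 and 0.635 for the latter. With Spearman's rho, 2 of the 5 were kept for Gdf15 and 0 for Stc2, and with the 16 DMSO and DTG libraries alone 3 and 5 were kept.

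The genes of the ISR were viewed in the same comparisons. Of 42 ISR and ATF4 target genes listed, 18 could be named, and since symbols came from the study's own lists of genes that differed between DTG-treated and DMSO-treated OLs or between stages, these counts are not independent evidence of direction. In DTG-treated against DMSO-treated OLs, 14 of 18 rose and 0 fell, against 0.354% of all genes called higher, and the median log2 fold change was 1.53 against 0.01 for all genes. These calls varied with the fit, since 17 of 18 were called when the replicate number entered the fit as a block and 7 under ERCC scaling. With that block the number of genes called higher was 95 in place of 45. Against untreated OLs, 11 of 18 rose and 0 fell, where 23 of 11909 genes were called higher. With 1 library left out, between 2 and 12 of the 18 were called there, the 12 without replicate 3 of the untreated OLs.

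Trib3, an ATF4-induced inhibitor of AKT, rose by 4.08 ± 0.40 on the log2 scale (SE, adjusted p = 0.000588, edgeR). Slc7a11, the cystine transporter, rose by 2.48 ± 0.22 and Chac1, which degrades glutathione, by 2.43 ± 0.28. Asns, asparagine synthetase, rose by 1.95 ± 0.23, and Atf4 itself by 1.12 ± 0.16 (adjusted p = 0.0067). Against untreated OLs Atf4 was at 1.06 and not called (adjusted p = 0.11, edgeR), whereas Trib3, Slc7a11, Chac1 and Asns were called. Against DMSO-treated OLs, Cebpg, a partner of ATF4, was the lowest at 0.71 ± 0.18 and was not called (adjusted p = 0.0991). In OPCs, 0 of 18 were called, as were 0 of all 13270 genes (0%). There 16 of 18 log2 fold changes were above 0, and the median was 0.24 against -0.002 for all genes. Trib3 was the highest there as well, at 1.31 ± 0.47 (adjusted p = 0.906).

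**Figure D4:**
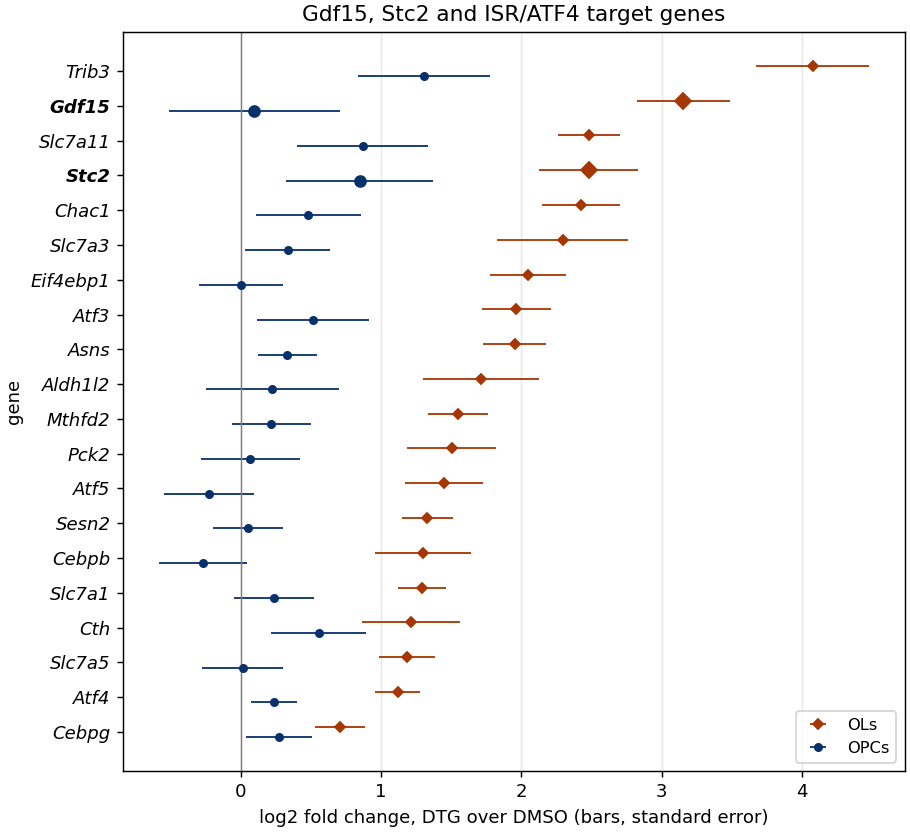
Log2 fold changes of DTG over DMSO (bars are standard errors) for Gdf15, Stc2 and 18 ISR and ATF4 target genes in OLs and OPCs, ordered by the value in OLs. All OL values lie above 0, from 0.71 for Cebpg to 4.08 for Trib3, and most OPC values lie near 0.

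With differentiation alone, in DMSO, 5 of the 18 ISR genes rose and 2 fell, against 14.0% of all genes called higher and 18.3% called lower, with a median of 0.08 against -0.12 for all genes. Those that rose with Stc2 were Atf3 (2.01), Atf5 (2.16), Trib3 (1.46), Chac1 (1.75) and Pck2 (1.09), and those that fell were Cebpg (-1.27) and Mthfd2 (-1.30), each as a log2 fold change. Sesn2, closest to Gdf15 over the libraries, was at -0.13 (adjusted p = 0.648, edgeR). In untreated cells 4 rose and 2 fell, against 11.4% and 13.2% of all genes, and without the replicate 3 libraries 3 were called in all.

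Of 23 p53 target genes, 8 could be named and 7 were tested in OLs. The names have the same source as those of the ISR genes, so these counts are not independent evidence either. With DTG, 1 rose there and 0 fell, against 0.354% of all genes called higher and 0.205% called lower, with a median of 0.76 on the log2 scale against 0.01 for all genes. It was Cdkn1a, at 1.00 ± 0.20 (adjusted p = 0.0351), just past the fold threshold, and Fas, a death receptor, was at 0.97 (adjusted p = 0.0413), just short of it. Against untreated OLs Cdkn1a was at 1.10 and was not called (adjusted p = 0.127, edgeR). In OPCs 0 of 8 were called with DTG, as were 0 of all 13270 genes (0%). From OPCs to OLs with DMSO, 7 of 8 fell, against 18.3% of all genes called lower, among them Eda2r at -3.62 and Plk2 at -2.47 on the log2 scale, and Cdkn1a was at -0.49 (adjusted p = 0.167).

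The other lists were covered by few names, again from the study's lists of genes that differed, so their counts are descriptions. Of 23 ER chaperone and XBP1 or ATF6 target genes, 3 were named, and with DTG in OLs 0 rose and Sdf2l1, an ER chaperone cofactor, fell by 1.11 on the log2 scale (adjusted p = 0.011), against 0.205% of all genes called lower. Hsp90b1 was at -0.52 (adjusted p = 0.159). Against untreated OLs Sdf2l1 was at -0.76 and was not called (adjusted p = 0.246, edgeR). Of the 14 genes around STC2, PAPP-A and the insulin-like growth factors, Igfbp3, Igfbp4 and Igf1r were named, and 0 of 3 were called with DTG in OLs, where Igfbp3 was at 0.84 (adjusted p = 0.384). All 3 fell from OPCs to OLs with DMSO, at -3.97, -2.97 and -1.37 on the log2 scale, against 18.3% of all genes called lower.

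Of 26 TGF-β family ligands, Bmp3 and Bmp7 were named, and in OLs with DTG the one tested, Bmp7, was at 0.19 (adjusted p = 0.763), while from OPCs to OLs with DMSO Bmp3 was at -3.43 and Bmp7 at -2.67 on the log2 scale, both called, against 18.3% of all genes called lower. The list of receptor, partner and processing genes of GDF15 had 0 of 6 names and was not analysed here. Of 24 other secreted stress factors and cytokines, 3 were named. Sfrp4, a secreted inhibitor of Wnt signalling, rose with DTG in OLs by 1.73 ± 0.33 on the log2 scale (adjusted p = 0.03, edgeR), from 0.945 to 3.12 CPM. Lif was at 1.72 ± 0.47 (adjusted p = 0.125) and Adm, the gene of the vasodilator adrenomedullin, at 0.95 ± 0.34 (adjusted p = 0.246).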

How the data were processed

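Per the labels and the study's methods, poly(A) RNA was sequenced after NEBNext Ultra II library preparation, and the authors trimmed reads, aligned them with STAR 2.5.2b and counted unique exonic reads with featureCounts of Subread 1.5.2 (build named in the submitters' processing notes, Rnor_6.0). The deposited files hold counts per gene and library, without normalization, and ERCC rows, which were used only for scaling. The untreated replicate 3 files of both stages list 30560 genes of other models.

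The tests were run in edgeR 4.0.16 under R 4.3.3. Each comparison used its 8 libraries, filterByExpr, TMM scaling and a quasi-likelihood test, with Benjamini-Hochberg adjustment over all genes tested. A gene was called when its adjusted p-value was below 0.05 and its log2 fold change exceeded 1 in size. Gdf15 and Stc2 passed the filter in all 9 comparisons. The replicates were litters according to the study's methods. Library names show shared dates, so same-numbered libraries were taken as pairs by date, and whether they share a litter is not stated. Their deviations from group means correlated across genes between 0.004 and 0.435 for DTG and DMSO in OLs, between -0.100 and 0.834 in OPCs, and between -0.345 and 0.676 for OLs and OPCs of the same treatment, where pairing by number was weaker with DTG, at 0.334, -0.062, 0.099 and -0.345. No 2 libraries of a group were alike within sampling noise (lowest chi-square per degree of freedom 16.9). The lowest pairs in DTG-treated OLs (16.9), DTG-treated OPCs (21.5) and DMSO-treated OLs (24.55) were replicates 2 and 3, which share a date. In DMSO-treated OPCs that pair was at 70.7 and not the lowest, nor was it in untreated cells, where replicate 3 has other gene models. Whether replicates 2 and 3 are independent was not tested.

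The members and gene lists were chosen with earlier results of these data known. Named genes were the members, the list genes that were called, extreme or define a step, and the 5 genes most like each member by Pearson's r of log2 CPM (prior count 2). The 2107 symbols came from the study's supplementary lists. Alternatives were DESeq2 1.42.0, its size factors, ERCC scaling, other filters, a replicate block, 24 libraries in one fit, shared gene models only and leaving out each library. The code was tested on simulated data. Low counts limit the precision of both genes outside DTG-treated OLs.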

Additional observations from a re-analysis of the deposited data

Results flagged for a closer look

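Within DTG-treated OPCs, Gdf15 in replicate 1 was 0.795 CPM, far below the other 3 libraries at 4.52 to 5.04 CPM, with a gap of 0.878 of the group's range, past Dixon's 95% limit for 4 samples. Of the 12 groups examined this was 1, and chance marks about 1 in 20. The DMSO-treated OPCs of replicate 1 were low as well, at 0.782 CPM, with a gap of 0.728. Stc2 was the highest of its group in the same DTG-treated library, at 4.98 CPM, with a gap of 0.777.

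The log2 fold change of Gdf15 between OLs and OPCs was 2.28 with DTG, higher in 4 of 4 pairs, and -1.02 in untreated cells, lower in 4 of 4 pairs. The opposite directions drew attention to it. The difference was not tested, since the DTG-treated OLs chose the gene.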

How the results depend on the processing

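Scaling to ERCC counts moved the most values. Gdf15 in DTG-treated against DMSO-treated OLs was then at 3.75, and genes called there numbered 17, against untreated OLs 10, and between untreated and DMSO-treated OLs 49. Between OLs and OPCs, ERCC scaling gave 0.93 for Gdf15, 1.70 for Stc2 and 8327 genes called with DTG, -2.33, -0.047 and 6526 with DMSO, and -1.93 for Gdf15 and 0.93 for Stc2 in untreated cells. In OLs with DTG against DMSO, 71 genes were called, 112 without a filter, 129 with DESeq2, 34 with all 24 libraries in one fit and 168 with a replicate block. Against untreated OLs 31 were called, 106 with DESeq2, 12 without replicate 3 and 107 with the block. For Stc2 in OPCs, DMSO against untreated, -0.01 turned to 0.044 with ERCC scaling, 0.0067 without a filter, 0.031 with the block and 0.019 without replicate 3. In the 6 comparisons that were tested, the block changed no call of either gene. Stc2 between OLs and OPCs was at 1.21 with DMSO in one fit of 24 libraries and at 1.27 in untreated cells without replicate 3, both no longer called.

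With single libraries left out, genes called in OLs ranged from 29 (without replicate 2 of the DMSO-treated OLs) to 89 against DMSO, with 46 without replicate 3 of the DTG-treated OLs. Against untreated OLs they ranged from 5 to 44, and 7 of the 8 fits, all but the one without replicate 3 of the untreated OLs, gave 14 or fewer. The log2 fold changes of OLs over OPCs ranged from 1.08 to 1.46 for Stc2 and from -1.12 to -0.52 for Gdf15 with DMSO, and from 1.36 to 2.01 and from -1.43 to -0.73 in untreated cells. In OPCs, Gdf15 with DTG against DMSO ranged from -0.23 to 0.44, and Stc2 with DMSO against no treatment from -0.22 to 0.34. In OLs, DMSO against no treatment ranged from 0.41 to 1.16 for Gdf15 and from -0.72 to -0.21 for Stc2, with no fit past the thresholds. The cause of these shifts was not tested.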
